A study of Macaca fascicularis with 10 samples.

Results

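The 96 genes described here carry names of RNA splicing and RNA-binding protein families, out of 7229 genes in a table of allelic counts. They are every gene whose symbol starts with HNRNP, SRSF, SF3, DDX, DHX, PRPF, RBM, RBFOX, U2AF, CELF, CPSF, CSTF, SNRP, ELAVL or LSM. The choice went by name, with earlier results of these data known. The counts come from total RNA of the dorsal raphe nucleus, the brainstem's largest group of serotonin neurons, in 10 female cynomolgus macaques (Macaca fascicularis). The mother and the father of each daughter are labelled, and the labels give 1 group with no treatment, age or genotype. Daughters carry numbers from 1 to 10, by title. Titles of 6 daughters (1 to 6) start with 10203 and those of 4 daughters (7 to 10) with 10480. Daughters 4 and 5 share a father, as do daughters 1, 7 and 8, and daughters 6 and 10 share a mother. For each gene and daughter the table gives the reads assigned to the maternal and to the paternal allele. The value used throughout is the paternal share, meaning the paternal reads as a percent of both columns, where 50% is balance.

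Splicing removes introns from a new transcript. Small nuclear ribonucleoproteins built on Sm and LSM protein rings recognise the intron ends, with U2AF and the SF3 complexes at the branch site and the end before the downstream exon. PRPF proteins and RNA helicases of the DDX and DHX families drive the rearrangements of the spliceosome. HNRNP, SRSF, RBM, RBFOX, CELF and ELAVL proteins bind RNA and steer which exons are used, and the last 3 families include proteins that are abundant in neurons. CPSF and CSTF proteins take part in the cutting of the transcript at its end, before the poly(A) tail is added. Autosomal genes of this kind are usually read from both parental copies, and X-linked ones from 1 copy per cell in females, since 1 X chromosome of each cell is silenced.

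The name rule also takes in genes with other work. DDX10, DDX18, DDX21, DDX31, DDX47, DDX49, DDX54, DDX55, DDX56, DHX33, DHX37, RBM19 and RBM28 are known from ribosome assembly. DDX58 (RIG-I), DHX58, DDX60 and DDX60L are interferon-induced genes linked to sensing of viral RNA. LSMD1 is a subunit of a protein acetyltransferase, and DDX12P is named as a pseudogene.

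Daughter 1 had the fewest allelic reads (30090) and daughter 6 the most (999471), and reads of the 96 genes from 177 to 9027, which is 0.809% of all allelic reads. Of the serotonin neuron markers, 4 of 5 were in the table (TPH2, SLC6A4, SLC18A2 and DDC), and FEV was not. SLC6A4 had reads in only 2 daughters. All 6 markers listed for other neurons were also in the table. So were the 2 of oligodendrocyte precursors, the 3 of endothelium and TTR of choroid plexus. Those of oligodendrocytes, astrocytes and microglia, 3 for each, were not. Absence from the table was not read as absence of expression. The total of a gene depends on how many positions differ between the parents in that daughter. For that reason totals are given as depth and not as expression. In bulk tissue fewer cells of a type and less RNA per cell cannot be told apart either.

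The genes were measured unevenly. A share was taken from 10 or more allelic reads, which left 427 values of 87 genes, with a median of 51 reads per value. The other 75 values with reads fell below that minimum, and 9 genes had none above it (SNRPG, LSM3, LSM6, LSM7, PRPF39, RBM38, RBM46, RBM47 and DDX12P). A share was available in 1 daughter for 11 genes, in 2 to 4 daughters for 28 and in 5 or more for 48. DDX18 was the only gene with a share in all 10 daughters. The largest single totals belonged to DDX5, with 1323 reads in daughter 3 and 1266 in daughter 5, to DDX17, with 1176 in daughter 6, and to SF3B3, with 1158 in daughter 5.

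Most values lay near balance. The median of the 427 shares was 50%, with quartiles of 43.0% and 55.2%, and 307 (71.9%) lay between 40% and 60%. Of the 27887 values over all genes, 69.8% lay in that range. A 95% Wilson interval, which covers only counting error because several reads can stem from 1 molecule, left out 50% for 82 of the 427 values (19.2%), against 20.1% of all values in the table. Of these 82, 50 were below 50% paternal and 32 above. That is 61.0% on the maternal side, against 52.7% of such values over all genes. In autosomal and unplaced genes of the group the split was 45 to 32. The spread around 50% narrowed with depth. Between 10 and 19 reads, 44.6% of the group's 65 values lay between 40% and 60%, and at 200 reads or more 88.9% of 54 values did. The matching figures over all genes were 49.0% and 89.8%. Intervals narrowed as well, so the share of values whose interval left out 50% rose from 12.3% to 35.2% between these depths, and over all genes from 11.6% to 33.7%.

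**Figure D1:**
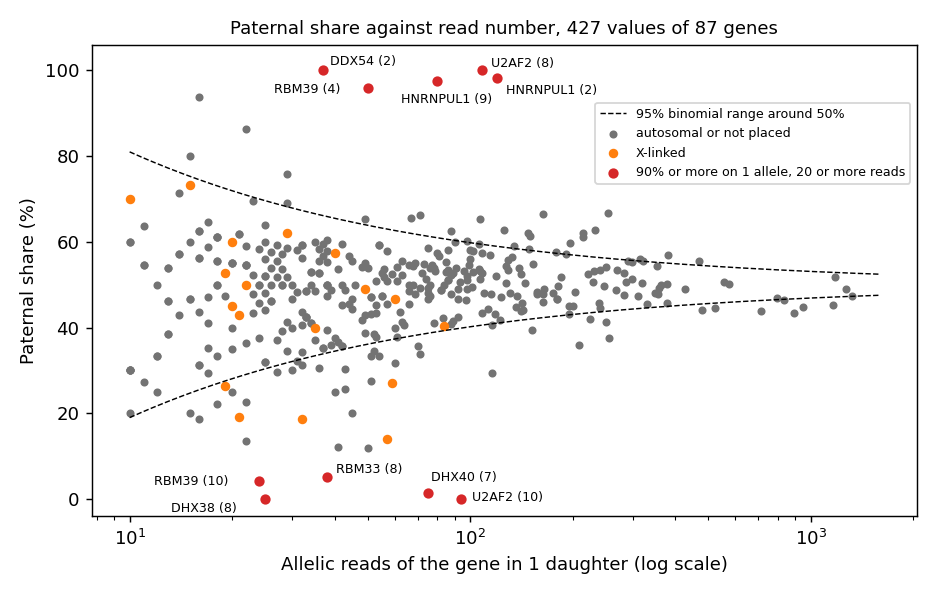
Paternal share (%) of each gene in each daughter against its allelic reads (log scale), for the 427 values with 10 or more reads. Dashed lines give the range that counting alone would give around 50%, and numbers in brackets are daughters. Most points lie inside the range, X-linked genes lie mostly below 50%, and the 10 values with 90% or more of 20 or more reads on 1 allele stand at the top and bottom.

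Summed over the group, the paternal column held 49.0% ± 2.59 of reads per daughter (SD, n = 10), against 49.9% ± 0.359 over all genes. The lowest sums were 44.6% from daughter 1, with 177 reads, and 46.5% from daughter 7, and the highest were 52.7% from daughter 2 and 53.0% from daughter 9. In daughters 2 and 9 HNRNPUL1 had 118 paternal reads of 120 and 78 of 80 (below), within group totals of 3655 and 2730 reads. Its part in these sums was not tested. The median share per daughter was 49.8% ± 1.39 (SD, n = 10).

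The main comparison asked which genes were read more from the allele of 1 parent in the same direction across daughters. No gene of the group passed. With edgeR's quasi-likelihood test, the daughter as block and Benjamini-Hochberg adjustment over all genes tested, 0 of 48 members were called, and 0 (0%) of 2981 genes in all. Genes entered the test with at least 10 reads in at least 5 daughters. At an unadjusted p under 0.05 there were 3 of the 48 (6.25%), against 3.12% of all genes with edgeR. All 3 had fewer paternal than maternal reads, and 2.21% of all genes had such a p in that direction. With DESeq2 0 were called and 2 of 48 had an unadjusted p under 0.05, against 1.78% of all genes. Of the 48, 27 had a fitted log2 ratio below 0 and 21 above, against 1548 and 1433 of all 2981 genes. The median ratio was log2 -0.03, against -0.01 over all genes. Mean shares of the 48 genes had a median of 48.8%, against 49.8% over 2981 genes, and 44 of 48 lay between 40% and 60%. The group's median depended on the read minimum and was 49.7% from at least 20 reads per value (38 genes). No gene of the 48 was on the same side in every daughter measured, against 1.24% of all genes always below 50% and 0.772% always above.

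None of these 3 genes passed the adjusted threshold. DDX60 had 30% of 10 reads from daughter 9, 30.6% of 36 from daughter 3, 33.8% of 71 from daughter 4, 39.5% of 38 from daughter 10, 46.7% of 30 from daughter 6, 48% of 25 from daughter 7 and 50% of 28 from daughter 2. Its share never exceeded 50% and had a mean of 39.8% ± 8.52 (SD, n = 7). The fitted log2 ratio was -0.59 ± 0.20 (SE, edgeR p = 0.0141, adjusted p = 1). RBMS2, a single-stranded nucleic acid binding protein, had 22.2% of 18 reads from daughter 5, 27.3% of 11 from daughter 10, 29.6% of 27 from daughter 3, 34.6% of 52 from daughter 4, 50% of 24 from daughter 7 and 54.5% of 22 from daughter 6. The first 4 of these lie below the other 2, but the intervals overlap (23.2 to 48.2 in daughter 4 and 31.4 to 68.6 in daughter 7). The mean was 36.4% ± 13.0 (SD, n = 6), and 42.2% from at least 20 reads per value (n = 4). The log2 ratio was -0.77 ± 0.29 (SE, edgeR p = 0.0229, adjusted p = 1). The third is the X-linked RBM10, described with the other X-linked genes below. On the paternal side HNRNPUL1, RBM42 and PRPF4 had the smallest p, at 0.149, 0.160 and 0.338 by edgeR, with an adjusted p of 1 each. RBM42 lay between 48.5% and 58.6% in 7 daughters and at 75.9% of 29 reads from daughter 5. PRPF4, a protein of the tri-snRNP, had a mean of 53.3% ± 7.54 (SD, n = 7), with 5 daughters above 50% and 2 below.

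**Figure D2:**
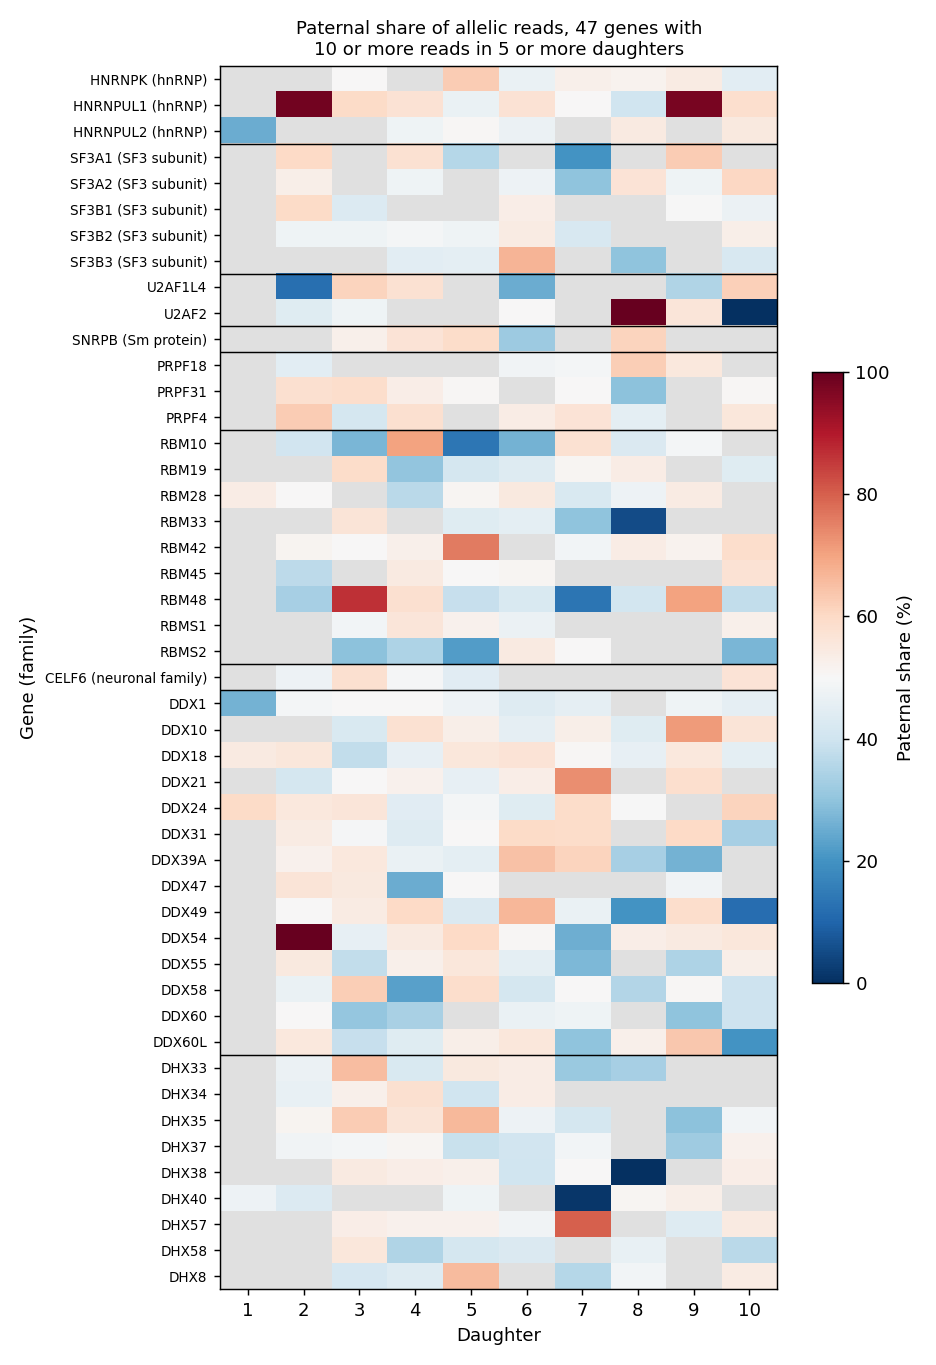
Paternal share (%) in each daughter (columns) of 47 of the 48 genes tested (rows, by family; lines separate families). Red is towards the paternal and blue towards the maternal column, and grey marks fewer than 10 reads. Pale colours prevail, single dark cells stand out (U2AF2 in daughters 8 and 10, HNRNPUL1 in 2 and 9), and DDX60 has no red cell.

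The HNRNP genes package new transcripts and influence splice choice. HNRNPK, a poly(C)-binding protein with the most reads of the 4, had 44.6% from daughter 10, 46.5% of 832 reads from daughter 6, 50.2% of 576 from daughter 3, 51.9% from daughter 8, 52.5% from daughter 7, 54.2% from daughter 9 and 62.7% of 233 from daughter 5. Only daughters 5 and 6 had intervals that left out 50%, on opposite sides (56.3 to 68.6 and 43.1 to 49.9). HNRNPK has processed copies elsewhere in primate genomes, and whether any of its reads stem from these was not tested. HNRNPUL2 lay between 46.9% and 55.1% in 5 daughters, with 25% of 12 reads from daughter 1. HNRNPD, which binds AU-rich elements, had 62.5% of 88 reads in the 1 daughter measured.

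HNRNPUL1, related to the nuclear scaffold protein HNRNPU, divided into 2 sets of daughters. Daughter 2 had 98.3% paternal reads of 120 (95% Wilson interval 94.1 to 99.5), and daughter 9 had 97.5% of 80 (91.3 to 99.3). In the other 7 daughters measured it had 40% of 60 reads from daughter 8, 46.7% of 180 from daughter 5, 50% of 42 from daughter 7, 57.1% of 191 from daughter 6, 57.4% of 108 from daughter 4, 58.4% of 149 from daughter 10 and 59.5% of 42 from daughter 3. These 7 had a mean of 52.7% ± 7.36 (SD, n = 7), and no value lay between 59.5% and 97.5%. Over all 9 daughters the mean was 62.8% ± 20.9 (SD), the highest of the 48 genes. Daughters 2 and 9 share no labelled parent. Their fathers are labelled 10136X10 and 10203X10, and whether these are separate animals was not tested. Over all genes the 2 daughters were alike in side more often than the 40 pairs without a shared labelled parent together. They lay on the same side of 50% in 903 of 1625 genes (55.6%, against 50.02%). Where both intervals left out 50% they did so in 81 of 103 genes, against 1905 of 3770, and the part of this in the HNRNPUL1 values was not tested.

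Of the SR proteins, which bind exonic enhancers, SRSF9 alone was in the table, with 46.2% of 26 reads in 1 daughter. The SF3 subunits belong to the U2 particle that holds the branch site. SF3B2 was among the steadiest genes, with 42.2% from daughter 7, 47.7% from daughter 2, 47.9% from daughter 3, 48.0% from daughter 5, 48.9% from daughter 4, 52.8% from daughter 10 and 54.0% from daughter 6. Its SD of 3.85 points (n = 7) was below the 4.39 points that counting its reads would give. SF3B1, the subunit best known for mutations in blood disorders, had a mean of 50.6% ± 6.31 (SD, n = 5), with 59.7% of 196 reads from daughter 2 and 43.1% of 195 from daughter 3 at its ends.

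SF3B3 and SF3A1 were less even. SF3B3 had 44.9% of 945 reads from daughter 4 and 45.2% of 1158 from daughter 5, which share a father, and 41.8% of 122 from daughter 10 and 30% of 30 from daughter 8. In daughter 6 it had 66.8% of 253 (60.8 to 72.3), the only value above 50%. SF3A1 had 35.9% of 209 reads from daughter 5 (29.7 to 42.6) and 20% of 10 from daughter 7, against 57.5% of 179 from daughter 4, 60% of 20 from daughter 2 and 62.7% of 126 from daughter 9. Its values in daughters 4 and 5 therefore lay on opposite sides, with intervals that both left out 50% (50.2 to 64.5 in daughter 4).

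U2AF binds the pyrimidine tract before the downstream exon, with U2AF2 as its large and U2AF1 as its small subunit. In daughter 8 all 108 reads of U2AF2 were paternal (100%, interval 96.6 to 100, and at most 2.78% maternal reads by the limit that a count of 0 allows, 3 reads). None of its 94 reads was paternal in daughter 10 (0%, interval 0 to 3.93, limit 3.19%). In the other 4 daughters with enough reads it had 44.0% of 141 reads from daughter 2, 47.9% of 163 from daughter 3, 50.3% of 145 from daughter 6 and 56% of 100 from daughter 9. These 4 had a mean of 49.5% ± 5.04 (SD, n = 4), so the gene was near balance in 4 daughters and wholly on opposite sides in 2. U2AF1 had 51.9% of 27 and 50% of 18 reads. U2AF1L4, a short relative of U2AF1, had 12.2% of 41 reads from daughter 2 (5.32 to 25.5) and 25% of 40 from daughter 6, against 35.1% from daughter 9 and 57.7% to 61.9% in daughters 3, 4 and 10.

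Sm proteins form the ring of the spliceosomal particles. SNRPB lay between 52.7% and 61.1% in 4 daughters and at 31.7% of 60 reads from daughter 6 (21.3 to 44.2). SNRPF had 65.4% of 107 reads from daughter 2 (56.0 to 73.8), against 35.9% of 39 from daughter 4 and 37.7% of 53 from daughter 5. SNRPD2 had 42.0% of 224 reads in 1 daughter, and SNRPD1 46.7% to 57.1% in 3. Of the 6 LSM names, 3 had shares, all between 40% and 60%: LSM4 (47.8% to 55.6%), LSM14B (49.0% and 50%) and LSMD1 (47.1% and 60%). Sm and LSM genes are short and have processed copies in primate genomes, and whether any of their reads stem from these was not tested.

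The 4 PRPF genes tested, from a family of splicing factors, had means from 50.1% to 53.3%. PRPF31, known for mutations in retinitis pigmentosa, had 50% from daughter 7, 50.5% from daughter 5, 50.7% from daughter 10, 53.3% from daughter 4, 57.9% from daughter 2 and 59.0% from daughter 3, and 29.3% of 116 reads from daughter 8 (21.8 to 38.1). Daughter 8 stood apart from the other 6. PRPF18, a second-step factor, had 51.9% ± 6.87 (SD, n = 5).

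Of the 22 RBM names, 9 were tested and 7 of them had means below 50%, among them RBMS2 and RBM10. Over all genes tested, 1561 of 2981 had means below 50%. RBM28 was steady, at 48.8% ± 6.44 (SD, n = 8), where counting alone would give 8.09 points. RBM19 had 46.0% ± 9.50 (SD, n = 7), and RBM23 lay between 45.5% and 49.5% in 4 daughters. RBM48, a partner of the minor spliceosome, was among the least steady, with 13.6% of 22 reads from daughter 7 (4.75 to 33.3), 33.3% of 51 from daughter 2, 37.5% of 40 from daughter 10, 38.5% of 52 from daughter 5, 40.6% of 32 from daughter 8, 42.4% of 33 from daughter 6, 57.9% of 38 from daughter 4, 70% of 10 from daughter 9 and 86.4% of 22 from daughter 3 (66.7 to 95.3). The lowest and the highest each rested on 22 reads. RBM45 (49.9% ± 7.76, SD, n = 5) and RBMS1 (51.3% ± 3.53, SD, n = 5) lay close to balance, as did RBM17, an intron-recognition factor, between 48.8% and 52.8% in 4 daughters. RBM11, RBM20, RBM43 and RBM4 had shares in 1 to 3 daughters, from 31.2% to 69.6%.

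RBM39 and RBM33 were read mostly from 1 allele in some daughters. RBM39, a partner of U2AF2, had a share in 2 daughters, with 96% of 50 reads from daughter 4 (86.5 to 98.9) and 4.17% of 24 from daughter 10 (0.739 to 20.2). RBM33 had 5.26% of 38 reads from daughter 8 (1.46 to 17.3), 30% of 10 from daughter 7, 44.1% of 143 from daughter 5, 45.2% of 42 from daughter 6 and 56.3% of 32 from daughter 3. Its mean of 36.2% ± 19.6 (SD, n = 5) was the lowest of the 48 genes. Without daughter 8 it was 43.9% ± 10.8 (SD, n = 4).

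The families known from neurons were thinly covered, with shares for 6 genes. CELF6, a splicing regulator enriched in brain, had 44.2% from daughter 5, 47.3% from daughter 2, 49.3% from daughter 4, 56.8% from daughter 10 and 57.8% from daughter 3. ELAVL3, a neuronal Hu protein, had 54.9% of 153 reads from daughter 3, and CELF1 53.5% of 86 from daughter 4. RBFOX2, a relative of the neuronal nuclear antigen RBFOX3, had 40.6% of 64 reads from daughter 6 and 40.9% of 88 from daughter 10, with intervals that include 50% (29.5 to 52.9 and 31.2 to 51.4). These 2 daughters share a mother. CELF4 lay below 50% in each of 3 daughters, at 18.8% of 16 reads from daughter 9 (6.59 to 43.0), 39.3% of 28 from daughter 5 and 48.5% of 33 from daughter 2. CELF2 had 31.2% and 32% in 2 daughters and 54.5% in another, from 11 to 25 reads each. Both were named after their values were seen.

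DDX helicases were the largest family, with 24 names, 23 with shares and 14 tested. DDX18 had 37.5% of 256 reads from daughter 3, 45% from daughter 10, 45.8% in daughters 4 and 8, 50.5% from daughter 7, 54.5% of 11 from daughter 1, 55.4% from daughter 9, 55.5% from daughter 5, 55.6% from daughter 2 and 57.0% of 381 from daughter 6, with a mean of 50.3% ± 6.47 (SD, n = 10). DDX24 had 53.1% ± 6.62 (SD, n = 9), with 43.8% of 712 reads from daughter 6 and 61.2% of 214 from daughter 10. Daughters 6 and 10 share a mother, and their DDX24 values lay on opposite sides, with intervals of 40.2 to 47.5 and 54.5 to 67.5.

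DDX1, known from tRNA ligation, lay between 43.5% and 50.3% in 8 daughters with 283 to 892 reads and at 26.3% of 19 reads from daughter 1. Its mean was 45.1% ± 7.38 (SD, n = 9). The log2 ratio was -0.21 ± 0.10 (SE, edgeR p = 0.0699, adjusted p = 1). DDX5, a splicing and transcription cofactor, had 47.4% of 1323 reads from daughter 3, 49.0% of 1266 from daughter 5 and 54.4% of 353 from daughter 4. Its close relative DDX17 had 51.7% of 1176 from daughter 6 and 44.6% of 522 from daughter 10. These deep values thus lay between 44.6% and 54.4%. DDX21, a nucleolar helicase, had 53.5% ± 10.3 (SD, n = 7). The thinner DDX genes lay on both sides. DDX42 (35.1% to 44.4%) and DDX50 (37.7% to 47.8%) were below 50% in each of 3 daughters, and DDX56 (55.6% to 60%) was above it in each of 3. DDX23, a helicase of the tri-snRNP, had 61.3% of 150 reads from daughter 10 (53.3 to 68.8) and 32% of 25 from daughter 5 (17.2 to 51.6). DDX19B and DDX26B had shares of 33.3% to 50% in 1 or 2 daughters.

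DDX54 and DDX49, both known from ribosome assembly, were wide. DDX54 had 100% of 37 reads from daughter 2 (90.6 to 100, limit 8.11% maternal) and 25.6% of 43 from daughter 7 (14.9 to 40.2), while the 7 remaining daughters lay between 46.0% and 60%. DDX49 had 12% of 50 reads from daughter 10 (5.62 to 23.8) and 20% of 45 from daughter 8 (10.9 to 33.8), against 66.5% of 164 from daughter 6 (58.9 to 73.2). Its values in the 6 others lay between 42.9% and 60%. DDX55 had 45.1% ± 10.7 (SD, n = 8), DDX31 51.1% ± 9.25 (SD, n = 8) and DDX10 52.8% ± 9.43 (SD, n = 8). DDX39A, an mRNA export helicase with a close paralogue, had 48.1% ± 13.2 (SD, n = 8). Among 13 genes known from ribosome assembly, a grouping made after their values were seen, 12 were tested, 0 were called, and the median of their mean shares was 47.8%.

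The 4 helicases linked to viral RNA sensing, also grouped after their values were seen, all had mean shares below 50%, and none was called by edgeR. A mean below 50% was found in 1561 of all 2981 genes tested. DDX60 had the 39.8% given above, DHX58 42.9% ± 7.47 (SD, n = 6), DDX58 45.2% ± 12.1 (SD, n = 9) and DDX60L 45.8% ± 14.0 (SD, n = 9). DHX58 rested on 13 to 22 reads per daughter, and its SD was smaller than the 12.2 points that counting would give. DDX58 had intervals leaving out 50% on both sides, at 62.1% of 214 reads from daughter 3 (55.5 to 68.4) and 41.2% of 250 from daughter 6 (35.3 to 47.4). DDX60L lay above 50% in 5 of its 9 daughters. DDX60 and DDX60L are paralogues, and whether any reads were assigned to the wrong one was not tested.

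Of the 10 DHX helicases, 9 were tested. DHX37 had 45.1% ± 7.02 (SD, n = 8) and DHX57 54.9% ± 11.7 (SD, n = 7). DHX8, which releases the spliced transcript, had 48.2% ± 10.6 (SD, n = 6), DHX33 46.9% ± 12.3 (SD, n = 7), DHX34 50.1% ± 7.08 (SD, n = 5) and DHX35 50.3% ± 11.8 (SD, n = 8). DHX32 lay between 35.7% and 61.9% in 4 daughters. DHX38, the helicase that acts before the second splicing step, lay between 40% and 54.5% in 6 daughters and had 0% of 25 reads from daughter 8 (0 to 13.3, limit 12%). DHX40 had 43.2% of 118 reads from daughter 2, 47.4% of 19 from daughter 1, 47.8% of 157 from daughter 5, 51.2% of 86 from daughter 8, 52.9% of 102 from daughter 9 and 1.33% of 75 from daughter 7 (0.236 to 7.17). In both genes 1 daughter stood apart from close agreement among the rest. Without it, the means were 50.6% ± 5.41 (SD, n = 6) for DHX38 and 48.5% ± 3.76 (SD, n = 5) for DHX40, against 43.4% ± 19.8 and 40.6% ± 19.5 with it.

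Among 3' end factors, the polyadenylation gene CPSF6 had 53.8% and 58% in 2 daughters, CPSF1 47.3% to 60% in 3 and CPSF7 37.1% to 50% in 3. CPSF2 had 46.2% of 13 reads from daughter 10 and 69.0% of 29 from daughter 5 (50.8 to 82.7), and was named after its values were seen. The X-linked CSTF2 is described below. None of the 5 had shares in 5 daughters.

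Taking these values as a set, 10 of 362 measurements from at least 20 reads lay with 90% or more on 1 allele, 5 towards each parent. That is 2.76%, against 1.6% of all values in the table. They came from 7 of 85 genes (8.24%, against 6.08% of all genes), namely HNRNPUL1, U2AF2, RBM39, DDX54, DHX38, DHX40 and RBM33. HNRNPUL1, U2AF2 and RBM39 were so in 2 daughters, which is 3 of 85 genes, against 0.591% of all genes. HNRNPUL1 lay on the same side in its 2 daughters, and U2AF2 and RBM39 on opposite sides. DDX51 was just outside, with 93.8% of 16 reads from daughter 9. With 50 or more reads 6 values remained above this level (both of HNRNPUL1, both of U2AF2, DHX40, and RBM39 in daughter 4).

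**Figure D3:**
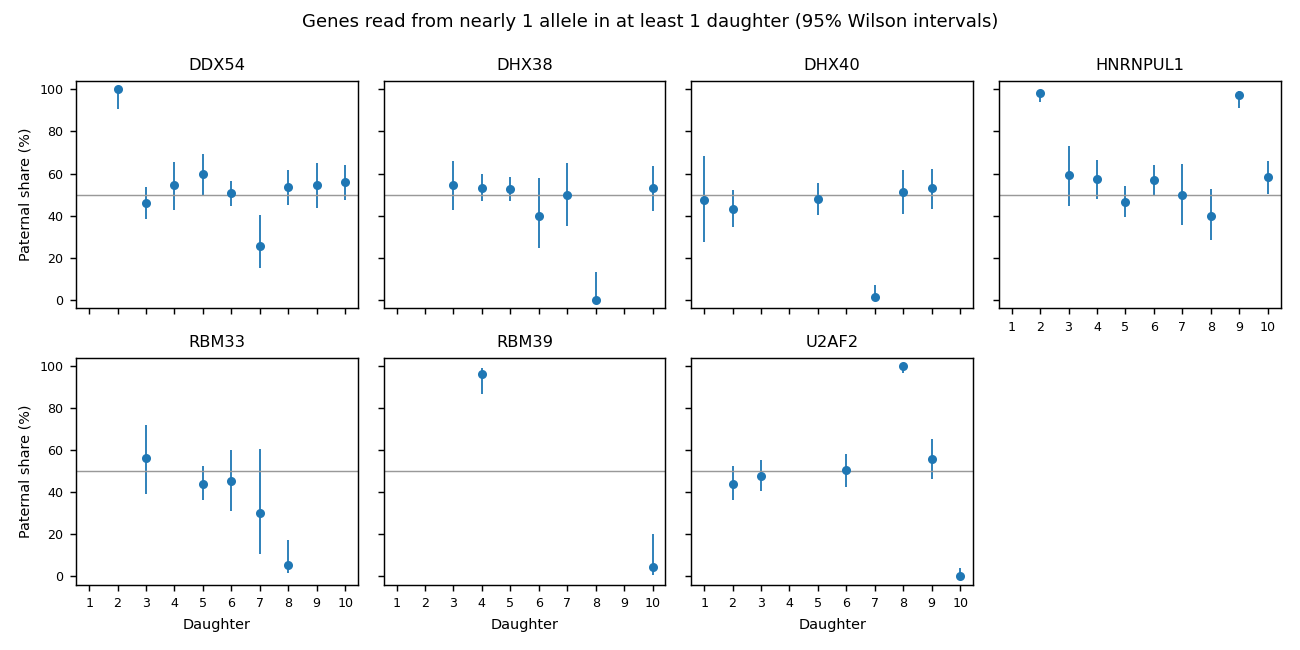
Paternal share (%) by daughter of the 7 genes with 90% or more of 20 or more reads on 1 allele in at least 1 daughter, with 95% Wilson intervals. The line marks 50%. U2AF2 is near 50% in 4 daughters and at 100% and 0% in 2, HNRNPUL1 is at 98.3% and 97.5% in 2, and DHX38 and DHX40 each fall near 0% in 1.

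Measured genes from the same stretch of chromosome, looked up after these values were seen, were not read from 1 allele to this extent. The 2 nearest genes on each side with 20 or more reads in the same daughter gave 40 values. By the order of the table's genes in the assembly T2T-MFA8v1.1, 7 of the 40 came next to the member, and the others lay up to 29 places away (median 5). None had 90% or more on 1 allele, 30 lay between 40% and 60%, and the range was 22.6% to 73.0%. EPN1, next to U2AF2, had 52.9% of 51 from daughter 10. EGLN2, next to HNRNPUL1, had 46.5% of 43 from daughter 2, and EXOSC5, 5 places from it, had 46.4% of 28 from daughter 9. GDPD1, next to DHX40, had 48.1% of 81 from daughter 7. The interval left out 50% in 7 of the 40, with 4 on the member's side and 3 on the other. Of the 4 genes around DDX54 in daughter 2, 3 lay on its paternal side, OAS3 at 65.3% of 49 reads (51.3 to 77.1), HECTD4 at 66.7% of 39 (51.0 to 79.4) and TPCN1 at 65% of 60 (52.4 to 75.8). DHODH, 2 places from DHX38, had 22.6% of 31 from daughter 8 (11.4 to 39.8). On the other side lay INSIG1 (73.0%, by RBM33), NFS1 (35.4%, by RBM39 in daughter 4) and ZNF584 (31.0%, by U2AF2 in daughter 8). The sources used here do not say how positions were phased and chosen. Whether the positions behind the values near 0% and 100% truly differ between the parents therefore could not be checked from these counts.

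Spread between daughters was close to that of other genes. Over the 48 genes the SD of the paternal share had a median of 10.4 points, against 9.53 over 2981 genes, where counting the reads would give medians of 7.88 and 7.32. These medians depend on the read minimum. From at least 20 reads per value they were 8.70 (38 genes) and 8.20 (2352 genes), and from at least 50 they were 6.23 (20 genes) and 6.38 (1369 genes). The SD was more than 2 times the counting value in 12 of 48 genes (25%), against 19% of all genes, and below it in 9 (18.8%, against 28.1% of all genes). The 12 were U2AF2, HNRNPUL1, DDX54, DHX40, DHX38, SF3B3, U2AF1L4, RBM48, PRPF31, DDX49, SF3A1 and RBM33. Among genes with shares in 7 or more daughters, RBM48, HNRNPUL1, DHX38, DDX54 and DDX49 had the largest SD, from 18.4 to 21.6 points, and SF3B2, HNRNPK, RBM28, DDX18 and DDX24 the smallest, from 3.85 to 6.62.

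**Figure D4:**
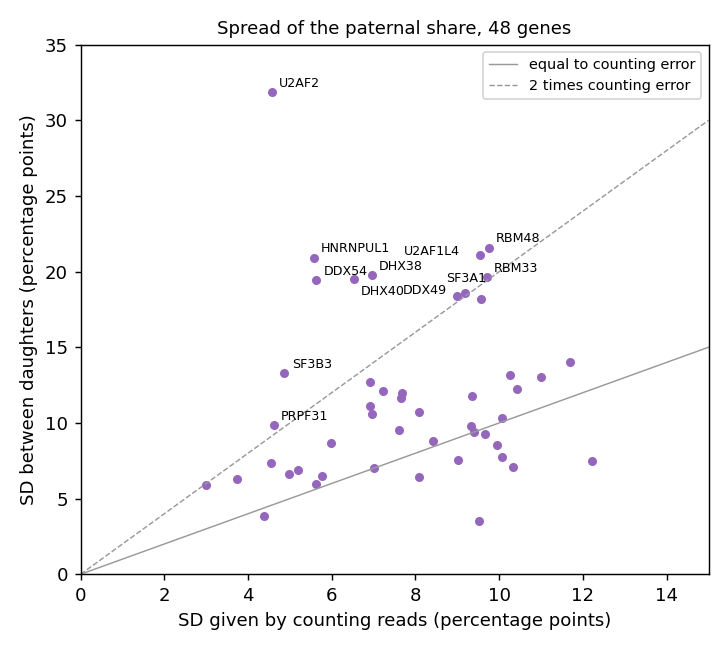
SD of the paternal share between daughters against the SD that counting the reads would give (both in percentage points), for the 48 genes with shares from 10 or more reads in 5 or more daughters. Genes more than 2 times above counting error are named. U2AF2, at 31.9 against 4.57 points, lies highest, and 9 genes lie under the line of equal values.

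The 5 X-linked genes were set against the other X-linked genes of the same daughter. RBM10, a splicing regulator, had 14.0% of 57 reads from daughter 5 (7.29 to 25.3), 26.3% of 19 from daughter 6, 27.1% of 59 from daughter 3 (17.4 to 39.6), 40.5% of 84 from daughter 2, 42.9% of 21 from daughter 8, 49.0% of 49 from daughter 9, 57.5% of 40 from daughter 7 and 70% of 10 from daughter 4. Its mean was 40.9% ± 18.2 (SD, n = 8). The log2 ratio was -0.78 ± 0.36 (SE, edgeR p = 0.0498, adjusted p = 1). RBMX2, a spliceosome component, had 18.8% of 32 reads from daughter 5, 46.7% of 60 from daughter 6, 62.1% of 29 from daughter 7 and 73.3% of 15 from daughter 8. CSTF2, an RNA-binding subunit of the cleavage stimulation factor, had 19.0% of 21 reads from daughter 5, 40% of 35 from daughter 6, 45% of 20 from daughter 10 and 52.6% of 19 from daughter 4. RBM41 had 60% of 20 reads from daughter 4, and RBMX, which has many processed copies, 50% of 22 from daughter 7. Daughter 5 was thus the lowest for each of the 3 genes with 4 or more values.

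Pooled over the 5 genes, daughters were ordered much as the other 263 X-linked genes ordered them. No daughter had reads in more than 3 of the 5, and daughters 2, 3 and 9 had them in RBM10 alone. Pooling had no read minimum per gene. Daughter 10 therefore includes RBM10, with 0 paternal of 6 reads, beside CSTF2 at 45% of 20. The order without those 6 reads was not tested. The pooled share of the 5 was 16.4% of 110 reads from daughter 5, 27.1% of 59 from daughter 3, 34.6% of 26 from daughter 10, 40.5% of 84 from daughter 2, 41.2% of 114 from daughter 6, 49.0% of 49 from daughter 9, 55.6% of 36 from daughter 8, 57.1% of 91 from daughter 7 and 59.2% of 49 from daughter 4. The other X-linked genes had 28.7%, 28.8%, 32.6%, 38.9%, 44.6%, 44.5%, 54.4%, 60.1% and 72.9% in the same daughters. Both lay on the same side of 50% in 9 of 9 daughters, 6 below and 3 above. The Wilson interval of the pooled members left out 50% only in daughters 3 and 5 (17.4 to 39.6 and 10.6 to 24.4). Daughter 1 had 1 read in these genes and was left out.

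The correlation was r = 0.909 (exact permutation test, two-sided, p = 1.65e-05, n = 9) and Spearman's rho 0.983 (exact permutation p = 4.96e-05). Without daughters 4 and 5, the 2 farthest from the median of the other X-linked genes, r was 0.966 (exact permutation p = 0.000794, n = 7). It was the only relation of this kind computed, so no adjustment was made. Within title prefixes the order was kept in full (rho of 1), in 5 daughters of prefix 10203 and in 4 of prefix 10480, each under the 6 needed to weigh a correlation. RBM10 alone gave r = 0.896 (exact permutation p = 0.00377, n = 8), an alternative added after seeing the data. The 4 other genes, pooled, gave r = 0.812 in the 5 daughters with 20 or more reads (exact permutation p = 0.0667), too few to weigh. Autosomal genes of the group in the same daughters pooled to between 45.8% and 53.3%. The X-linked values set against each other come from the same libraries. DDX26B, with 33.3% of 12 reads from daughter 5 alone, may be an older name of an X-linked gene, but the gene table does not list it and it is counted among the unplaced genes.

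**Figure D5:**
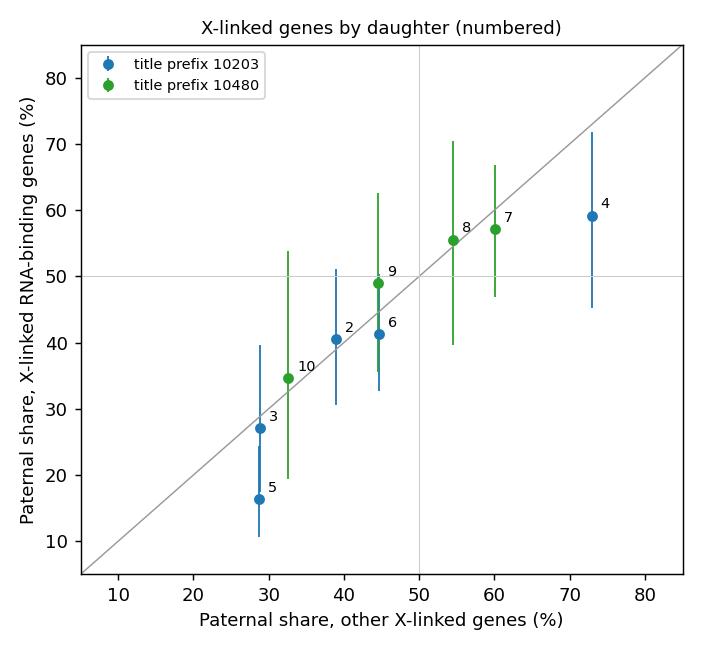
Pooled paternal share (%) of the 5 X-linked RNA-binding genes (vertical, with 95% Wilson intervals) against that of the 263 other X-linked genes (horizontal) in the 9 daughters with 20 or more reads, coloured by title prefix. The diagonal marks equal shares. Points run from daughter 5 (16.4% against 28.7%) to daughter 4 (59.2% against 72.9%).

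Titles and kinship were examined next. The difference between the alleles did not depend detectably on title prefix in any member. With edgeR's interaction test 0 of 48 were called, against 0.0335% of 2981 genes, and 1 of 48 (2.08%) had an unadjusted p under 0.05, against 3.56%. That was DDX49, with a difference of log2 -1.48 ± 0.58 between the prefixes, lower paternal in 10480 than in 10203 (SE, edgeR p = 0.0243, adjusted p = 1). Over the 5 pairs of daughters that share a labelled parent, 53 of 109 comparisons of a gene (48.6%) lay on the same side of 50%. In the 40 other pairs, which include daughters 2 and 9, it was 470 of 929 (50.6%). Over all genes of the table the shares were 49.5% and 50.02%. Where both daughters of a pair sharing a parent had intervals that left out 50%, the side was the same in 3 cases (SF3B3 and RBMS2 in daughters 4 and 5, DDX58 in daughters 6 and 10) and opposite in 3 (SF3A1 in 4 and 5, DDX24 and DDX49 in 6 and 10). Over all genes the side was the same in 238 of 502 such cases. The pairs differed in this, with 124 of 230 in daughters 4 and 5, 46 of 65 in daughters 7 and 8, and 56 of 175 in daughters 6 and 10.

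Other genes of RNA processing that the name rule leaves out were counted as a list. The table held 29 of 80 listed genes, and 14 had enough reads for the test, with 0 called by edgeR, 0 at an unadjusted p under 0.05, 7 with a log2 ratio below 0 and 7 above. The median of their mean shares was 50.5%, against 48.8% in the 48 genes, and of their SD 7.65 points, against 10.4. Of their 111 values with 20 or more reads, 2 had 90% or more on 1 allele. SNRNP200, the helicase that unwinds U4 from U6, was measured in all 10 daughters, at 50.1% ± 6.98 (SD).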

How the data were processed

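Per the labels' protocols, RNA depleted of ribosomal RNA went into strand-specific libraries read from both ends over 101 cycles; they also describe a chromatin step, not analysed here. Novoalign is the aligner named in the submitters' processing notes. The authors deposited raw counts of allelic reads per gene in 20 columns, 1 maternal and 1 paternal for every daughter. The build is macFas5 per the file headers. Phasing and the choice of positions are not given in the sources used here. Columns were matched to samples by title.

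The members and lists were chosen with earlier results of these data known. The quasi-likelihood test of edgeR 4.0.16 (robust glmQLFit, then glmQLFTest, under R 4.3.3) covered all genes with at least 10 reads in at least 5 daughters. Daughter was the block, and each library size was the sum of both alleles. Values missing in a daughter entered as 0 in both columns. Calls needed a Benjamini-Hochberg adjusted p below 0.05. The SE of a log2 ratio is approximate, taken as its absolute value divided by the square root of the test's F statistic. DESeq2 1.42.0 served as a second tool. Tested on simulated data for this comparison (2981 genes), the fit found 72% of 100 genes set to a 2-fold change, 100% of 100 set to 4-fold, and 6 false ones. Spread in the simulation followed the trend over all genes. Recovery for genes with a wider spread between daughters, such as U2AF2, was not tested. Shares, intervals and correlations used Python 3.11.15 with SciPy 1.17.1. Chromosomes came by symbol from the RefSeq gene table of T2T-MFA8v1.1, another build, so no coordinates are given. It placed 90 of the 96 genes. DDX58, DDX19B, DDX12P, RBM4, LSMD1 and DDX26B were not placed.

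Daughters are separate animals. Named members were up to 4 per family with most reads, those with 90% or more of 20 or more reads on 1 allele, any past a threshold, the 5 lowest and 5 highest means, the 5 smallest and 5 largest SD, all X-linked members, and up to 3 per direction with the smallest p. Other members were named after their values were seen. Values of 1 tested member are not reported here, and it is left out of the plot of shares by gene and daughter. Alternatives were other read minimums and normalisations, DESeq2, no block, title prefix 10203 alone and leaving out each daughter.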

Additional observations from a re-analysis of the deposited data

Results flagged for a closer look

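In 11 of 54 genes with shares in 4 to 10 daughters (20.4%), 1 daughter lay far from the others by Dixon's criterion, which chance alone meets in about 1 of 20 groups with values of equal precision. Over all genes 427 of 3646 (11.7%) had such a daughter. Read numbers differ between daughters, and their part in this was not tested. Of these, 5 rested on 20 or fewer reads. DDX1 had 26.32% of 19 reads in daughter 1, next to 43.5%. DDX47 had 25% of 20 reads in daughter 4, next to 48.2%. DHX57 had 80% of 15 reads in daughter 7, next to 54.5%. HNRNPUL2 had 25% of 12 reads in daughter 1, next to 46.9%. SF3A2, a subunit of the U2 particle, had 30% of 10 reads in daughter 7, next to 47.4%.

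The other 6 had 25 to 116 reads. DDX54 had 100% of 37 reads in daughter 2, next to 60%. DHX38 had 0% of 25 reads in daughter 8, next to 40%. DHX40 had 1.333% of 75 reads in daughter 7, next to 43.2%. PRPF31 had 29.31% of 116 reads in daughter 8, next to 50%. RBM42 had 75.86% of 29 reads in daughter 5, next to 58.6%. SNRPB had 31.67% of 60 reads in daughter 6, next to 52.7%. U2AF2 and HNRNPUL1 were not picked out by this criterion, since each had 2 daughters far from the rest.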

How the results depend on the processing

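The count of 0 members called between the parental columns was the same under DESeq2, TMM factors, no read filter, 20 or more reads, prefix 10203 alone, and without each daughter in turn (0 to 0). It was also 0 with no replicate block, where 0 members had an unadjusted p under 0.05 by edgeR. The median SD between daughters was 8.70 points with at least 20 reads per value (38 genes) and 6.23 with at least 50 (20 genes), and 9.36 to 11.1 without single daughters. With at least 50 reads, 83.4% of 217 values lay between 40% and 60%, 23.5% had intervals leaving out 50%, and 6 values had 90% or more on 1 allele. Without single daughters there were 7 to 10 such values, and the median mean share was 47.6% to 49.9%. That median was 48.8% in the main setting (48 genes) and 49.7% with at least 20 reads per value (38 genes). With at least 50 reads it was 50.0043% (20 genes), so the lean below 50% was not kept in the deeper values. The correlation of X-linked shares was 0.891 to 0.937 without single daughters. With the genes other than RBM10 it was 0.812 (exact permutation p = 0.0667, 5 daughters), with fewer samples. The 81 alternatives for means of named genes all moved them by less than the gene's own SD between daughters. That measure is wide for some genes, and some means crossed 50%. With at least 50 reads per value DHX38 went from 43.4% to 53.4% (n = 4) and RBM10 from 40.9% to 27.2% (n = 3). HNRNPK and SF3B2 kept the same mean. Depth limits daughter 1 most, with 6 shares from 10 or more reads.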
